A study of Saccharomyces cerevisiae with 12 samples.

Results

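A list of 10 genes of glycogen metabolism in budding yeast (Saccharomyces cerevisiae) was followed in poly(A) RNA-seq counts. They were taken by their systematic names from the deposited count table, which holds 7127 features, and all 10 were present. The list holds the glycogenins GLG1 and GLG2, the glycogen synthases GSY1 and GSY2, the branching enzyme GLC3, the phosphatase subunit GAC1, the phosphoglucomutase PGM2, the glycogen phosphorylase GPH1, the debranching enzyme GDB1 and the glucoamylase SGA1. All 10 passed the filter on low counts, so that none was left out of the tests.

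Glycogen is a branched polymer of glucose that yeast stores as a carbon reserve. Its synthesis begins with glucose phosphate, which phosphoglucomutase and UDP-glucose pyrophosphorylase turn into UDP-glucose. Glycogenin then starts a short glucose chain, glycogen synthase lengthens it and the branching enzyme adds side chains. Phosphorylation holds glycogen synthase inactive, and type 1 phosphatase, guided to it by Gac1, removes the phosphate. Breakdown uses phosphorylase and the debranching enzyme, and sporulating cells also use a glucoamylase. Many of these genes are known to be low in fast growth on glucose and to rise in stress or slow growth, through the transcription factors Msn2 and Msn4, which bind the stress response element, and under restraint by protein kinase A.

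The 12 libraries came from 2 strains of mating type a, each exposed for 3 hours either to ethanol (EtOH) or to estradiol (E2), in 4 groups of 3 libraries. Both strains are labelled with the centromere of chromosome IV between lox sites beside KanMX, and with LEU2-marked Cre recombinase under hormone control, written GDP-creEBD78 for one strain and GDP-creEDB78 for the other. Such a recombinase carries an estrogen-binding domain, is activated by estradiol and can then remove the centromere. The reference strain is also labelled with ura3-delta-0 and met15-delta-0, and with the alleles leu2-delta-0 and his3-delta-1. The other, called S10D-labelled here, has the histone construct hht2-hhf2::[HHT-S10D-HHFS]-URA3, in which aspartate takes the place of serine at residue 10 of histone H3. It is also labelled with a Tet operator array and its repressor (trp1::TetO:TRP1 and TetR-mRFP), with a Lac repressor (his3::LacR-GFP:HIS3) and its operator array (lys4::LacO:hphNT1), and with leu2-x, bar1-delta- and Ade1. The histone construct and these other alleles cannot be told apart in a comparison of the strains. No library came from a strain without lox sites, so E2 itself, Cre and the loss of the centromere cannot be told apart either. The labels do not say whether libraries of a group were separate cultures, so a p-value here measures the spread between these libraries, which may be technical.

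Libraries held 9362173 to 11806239 counts. URA3, given as deleted in the reference label, had 0 to 5 counts in its libraries and 1212 to 1529 in those of the S10D-labelled strain, and the histone gene HHT2 had 7906 to 11145 against 2290 to 2767. BAR1, given as deleted in the S10D label, had 3162 to 3787 counts in those libraries and 6829 to 9265 in the reference strain, which goes against that part of the label. Markers of a cells (5 genes) summed to between 2090.6 and 4321.5 CPM (a library's counts scaled to a common total), and the 4 alpha cell markers to between 49.5 and 68.8, the 2 alpha factor genes having 0 to 30 counts in a library. One library, reference EtOH replicate 3, was unlike the other 2 of its group. Its chi-square per degree of freedom was 31.0 against replicate 1 and 32.0 against replicate 2, while the other 10 pairs within groups lay between 1.39 and 4.98. Since this library also stood apart in several glycogen genes, results that rest on it are given with and without it.

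The members lie on 9 chromosomes, none of them chromosome IV, each with 1 coding exon and no other annotated gene overlapping it (RefSeq annotation of build R64). GSY1 (YFR015C, VI 174265 to 176391, minus strand) and GSY2 (YLR258W, XII 660716 to 662833, plus strand) were 73.2% identical over 2113 aligned coding bases, with no identical run above 20 bases. GLG1 (YKR058W, XI 552770 to 554620, plus) and GLG2 (YJL137C, X 154985 to 156127, minus) were 64% identical over 1127 aligned bases. GLC3 is YEL011W (V 133120 to 135234, plus), GAC1 is YOR178C (XV 667860 to 670241, minus) and PGM2 is YMR105C (XIII 475897 to 477606, minus). GPH1 is YPR160W (XVI 861306 to 864014, plus), GDB1 is YPR184W (XVI 902044 to 906654, plus) and SGA1 is YIL099W (IX 178004 to 179653, plus).

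The upstream DNA of the members was read for the core of the stress response element, AGGGG on the gene's strand or CCCCT, its reverse complement. The window was the 300 bases from 350 to 51 bases before the start codon, on build R64. The element was found at least once in 8 of 10 members and in 22.9% of the windows of 6020 protein-coding genes, and at least 2 times in 3 members (GLC3, PGM2 and SGA1) and in 3.82% of all windows. GLG1 and GAC1 had no match, which says only that these letters are not in this window. The windows of 5 members are printed 5′ to 3′ on the gene's strand, with matches in capitals: SGA1 and GDB1, which had the largest responses to E2, PGM2, which had 3 matches as SGA1 did, GLC3, which differed most between libraries of a group, and GAC1, which had none. They lie at chrIX:177654-177953 (plus), chrXVI:901694-901993 (plus), chrXIII:477657-477956 (minus), chrV:132770-133069 (plus) and chrXV:670292-670591 (minus), in the order of the lines.
SGA1: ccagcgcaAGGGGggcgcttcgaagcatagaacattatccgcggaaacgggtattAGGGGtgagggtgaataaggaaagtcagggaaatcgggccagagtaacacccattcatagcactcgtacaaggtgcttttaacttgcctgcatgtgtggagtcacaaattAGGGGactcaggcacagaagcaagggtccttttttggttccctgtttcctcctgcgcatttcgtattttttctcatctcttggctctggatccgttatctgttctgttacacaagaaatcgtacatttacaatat
GDB1: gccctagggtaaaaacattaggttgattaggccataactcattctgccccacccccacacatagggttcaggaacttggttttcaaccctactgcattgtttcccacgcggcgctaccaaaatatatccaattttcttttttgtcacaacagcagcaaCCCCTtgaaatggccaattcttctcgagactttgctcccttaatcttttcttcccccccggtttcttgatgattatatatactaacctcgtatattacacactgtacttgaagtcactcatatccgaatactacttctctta
PGM2: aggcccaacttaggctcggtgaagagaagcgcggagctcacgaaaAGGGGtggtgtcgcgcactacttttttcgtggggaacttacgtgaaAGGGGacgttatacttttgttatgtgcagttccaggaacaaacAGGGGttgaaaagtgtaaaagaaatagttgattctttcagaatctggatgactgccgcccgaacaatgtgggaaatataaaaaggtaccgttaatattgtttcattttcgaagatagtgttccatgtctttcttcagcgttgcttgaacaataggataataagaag
GLC3: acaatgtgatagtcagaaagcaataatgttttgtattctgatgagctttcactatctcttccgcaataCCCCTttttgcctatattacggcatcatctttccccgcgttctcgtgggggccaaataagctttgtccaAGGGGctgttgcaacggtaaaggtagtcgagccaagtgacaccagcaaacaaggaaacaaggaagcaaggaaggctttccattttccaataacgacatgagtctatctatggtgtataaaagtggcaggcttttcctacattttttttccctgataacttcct
GAC1: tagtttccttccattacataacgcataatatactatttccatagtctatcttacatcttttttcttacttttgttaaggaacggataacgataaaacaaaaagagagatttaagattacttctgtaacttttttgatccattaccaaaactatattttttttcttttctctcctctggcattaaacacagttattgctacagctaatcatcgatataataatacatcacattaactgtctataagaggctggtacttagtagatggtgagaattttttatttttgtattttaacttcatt

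**Figure D1:**
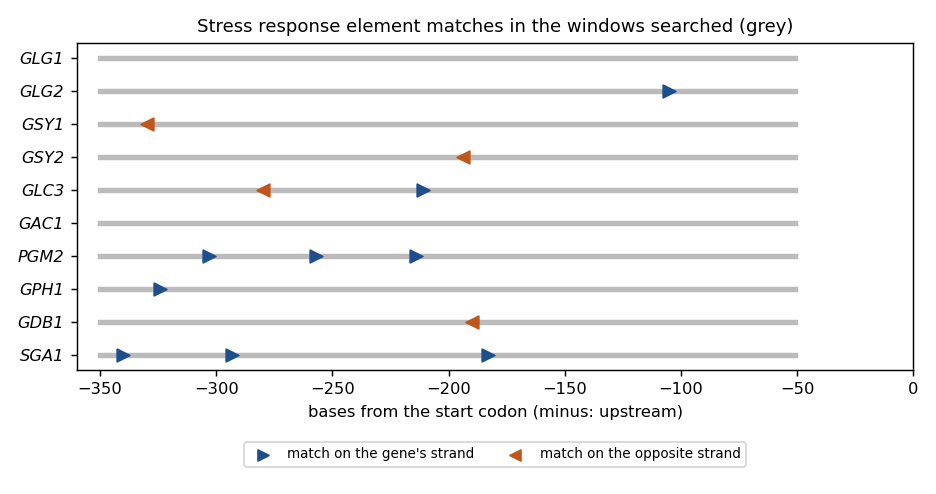
Matches of the stress response element core in the window searched upstream of each glycogen gene, by distance from the start codon in bases, with right-pointing marks for the gene's strand and left-pointing marks for the opposite strand. SGA1 and PGM2 have 3 matches each, GLC3 has 2, and GLG1 and GAC1 have none.

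Levels are given as CPM scaled by TMM (trimmed mean of M values), a factor that sets libraries against each other by the bulk of their genes. Taken per kilobase of coding length, so that genes can be compared, the levels in reference EtOH ran from PGM2 (178.9 ± 25.0 CPM per kb, SD, n = 3) and GSY2 (161.1 ± 23.3), whose libraries overlapped, through GPH1 (123.5 ± 5.65) down to GLG2 (30.5 ± 1.2) and SGA1 (9.75 ± 0.523). GPH1, GLC3 (86.3 ± 41.6) and GSY1 (75.5 ± 36.4) each overlapped the next in this order, down to GLG1 (54.7 ± 1.47). GAC1 (47.9 ± 1.75) and GDB1 (34.7 ± 2.92) followed, apart from each other and from their neighbours.

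The order per kilobase changed little with the group at its ends and more in its middle. PGM2 and GSY2 held the first 2 places and SGA1 the last in all 4 groups. GDB1 was in place 8 in reference EtOH and in place 5 in reference E2 (89.2 ± 6.07 CPM per kb). GSY1 was in place 5 in reference EtOH, or in place 6 without reference EtOH replicate 3 (54.5 CPM per kb, beside 55.0 for GLG1), and in place 9 in S10D-labelled EtOH (25.4 ± 1.63 CPM per kb), where it overlapped GLG2 (25.4 ± 1.01). Summed over the 10 members, the level was 1554.5 to 2045.6 CPM in reference EtOH, 2337.2 to 2556.9 in reference E2, 988.6 to 1000.8 in S10D-labelled EtOH and 1088.9 to 1125.2 in S10D-labelled E2. Each reference library thus held more glycogen gene RNA, relative to the bulk of its genes, than any S10D-labelled library.

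**Figure D2:**
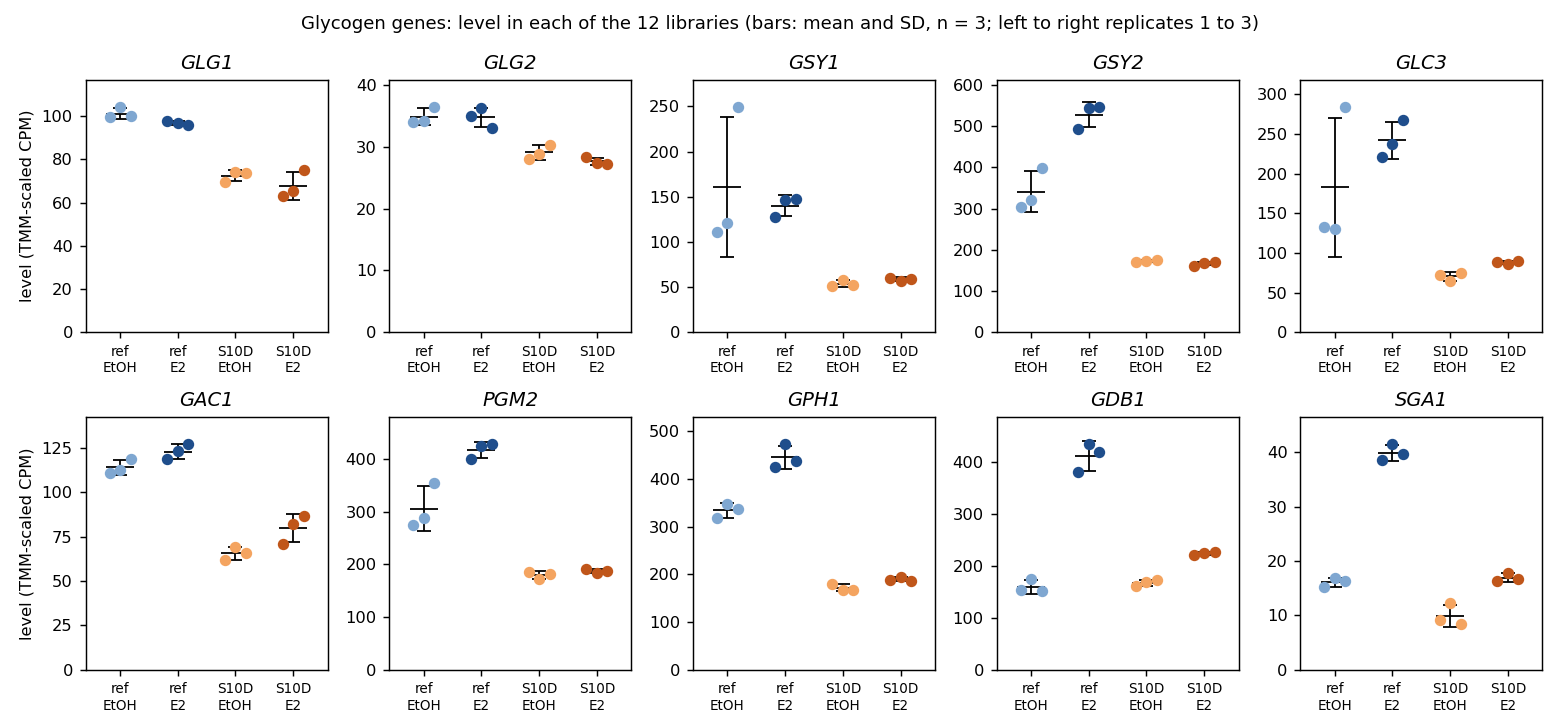
Level of each glycogen gene in each library (TMM-scaled CPM, linear axes from 0), with points for replicates 1 to 3 from left to right and bars for the mean and SD of 3 libraries. GSY1 and GLC3 in reference EtOH have 1 library, replicate 3, at 249.6 and 284.0 CPM, above the other 2 of their group, and all genes but GDB1 are lower in the S10D-labelled than in the reference strain in EtOH.

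In EtOH, the S10D-labelled strain had less RNA of 9 of the 10 listed genes than the reference strain. Both synthases, the branching enzyme, phosphorylase and phosphoglucomutase were lower, and the glycogenins less so, while the debranching enzyme gene GDB1 alone overlapped between the strains. By edgeR's quasi-likelihood test, with p-values adjusted by Benjamini and Hochberg's method over all features and a threshold of 0.05, 9 of 10 members were called lower and none higher. The background is high, since 58.1% of the 5990 features tested were called, 31.4% lower and 26.7% higher. Without overlap between the strains' libraries, 9 members were lower and none higher, against 32.6% and 28.5% of all features. In bulk RNA, fewer cells with a transcript and less of it per cell cannot be told apart. The members' median log2 fold change was -0.78, against -0.03 over all features tested.

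Among the genes of synthesis, GSY2, the main glycogen synthase, had 305.0, 321.0 and 397.5 CPM in the reference EtOH libraries and 170.3, 173.6 and 174.5 in the S10D-labelled ones. No library of one strain reached those of the other, and GSY2 was 1.98-fold lower (log2 -0.98 ± 0.08, SE, adjusted p = 2.11e-07). GSY1, the second synthase, had 110.8, 121.2 and 249.6 CPM against 51.4, 58.0 and 52.7. Its log2 fold change was -1.58 ± 0.27 (adjusted p = 0.000519), and it was -1.10 ± 0.07 without reference EtOH replicate 3. GLC3, which makes the branches, had 132.6, 130.7 and 284.0 CPM against 71.8, 64.7 and 74.8. Its change was -1.38 ± 0.27 (adjusted p = 0.00126), or -0.90 ± 0.07 without that library, and the strains did not overlap with it or without it.

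PGM2, the main phosphoglucomutase isoform, had 274.7, 288.7 and 354.6 CPM in the reference EtOH libraries and 186.0, 171.5 and 181.8 in the S10D-labelled ones (log2 -0.77 ± 0.08, adjusted p = 1.30e-06). GAC1, which brings type 1 phosphatase to glycogen synthase, had 111.1, 112.3 and 118.9 CPM against 61.8, 69.3 and 65.7 (-0.80 ± 0.07, adjusted p = 2.53e-07). All reference libraries lay above all S10D-labelled libraries for both genes. The glycogenin genes differed less. GLG1 went from 99.4 to 104.3 CPM in the reference strain to between 69.5 and 74.0 (-0.48 ± 0.06, adjusted p = 1.22e-05). GLG2 went from 34.0 to 36.5 CPM to between 28.1 and 30.3, the smallest of the called differences (-0.26 ± 0.06, adjusted p = 0.00318).

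The genes of breakdown did not move as one. GPH1, which releases glucose phosphate from glycogen, had 317.8, 347.8 and 337.9 CPM in reference EtOH and 180.4, 168.1 and 166.6 in S10D-labelled EtOH, 1.95-fold lower (log2 -0.96 ± 0.05, adjusted p = 1.54e-09). SGA1, the glucoamylase of sporulation, had 15.2, 16.9 and 16.2 CPM against 9.22, 12.3 and 8.33 (-0.70 ± 0.12, adjusted p = 0.000179). GDB1, which removes the branches that phosphorylase leaves, had 153.9, 175.4 and 150.6 CPM against 161.6, 168.4 and 172.1. These libraries overlapped, and the difference of 0.07 ± 0.06 had a 95% interval from -0.07 to 0.20 (adjusted p = 0.39).

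After 3 hours of E2, all 10 members were lower in the S10D-labelled than in the reference strain, with no overlap between the libraries of the groups for any of them. In this comparison 54.3% of the features tested were called, 27.3% lower and 27.0% higher, while 34.6% were lower and 34.0% higher without overlap. It shares no library with the comparison in EtOH. The median of the members was -1.19, against -0.01 over all features. GSY2 differed most, with 492.9, 544.3 and 547.0 CPM in the reference strain and 161.8, 168.0 and 170.8 in the S10D-labelled strain, a level 3.16-fold lower (log2 -1.66 ± 0.08, adjusted p = 9.33e-10). GLC3 was lower by 1.46 on the log2 scale (-1.46 ± 0.26, adjusted p = 0.000842), GSY1 by 1.26 (-1.26 ± 0.27, adjusted p = 0.00236) and PGM2 by 1.15 (-1.15 ± 0.08, adjusted p = 1.90e-08).

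GPH1 and SGA1 were both 2.35-fold lower in E2 (-1.23 ± 0.05 and -1.23 ± 0.10, adjusted p = 1.07e-10 and 1.31e-07). GDB1, which overlapped between the strains in EtOH, was now 1.84-fold lower (-0.88 ± 0.06, adjusted p = 2.79e-08), with 379.9, 434.0 and 419.5 CPM in the reference strain and 220.6, 224.5 and 226.2 in the S10D-labelled strain. The differences of GAC1 (-0.62 ± 0.07), GLG1 (-0.51 ± 0.06) and GLG2 (-0.33 ± 0.06) were the smallest of the 10.

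**Figure D3:**
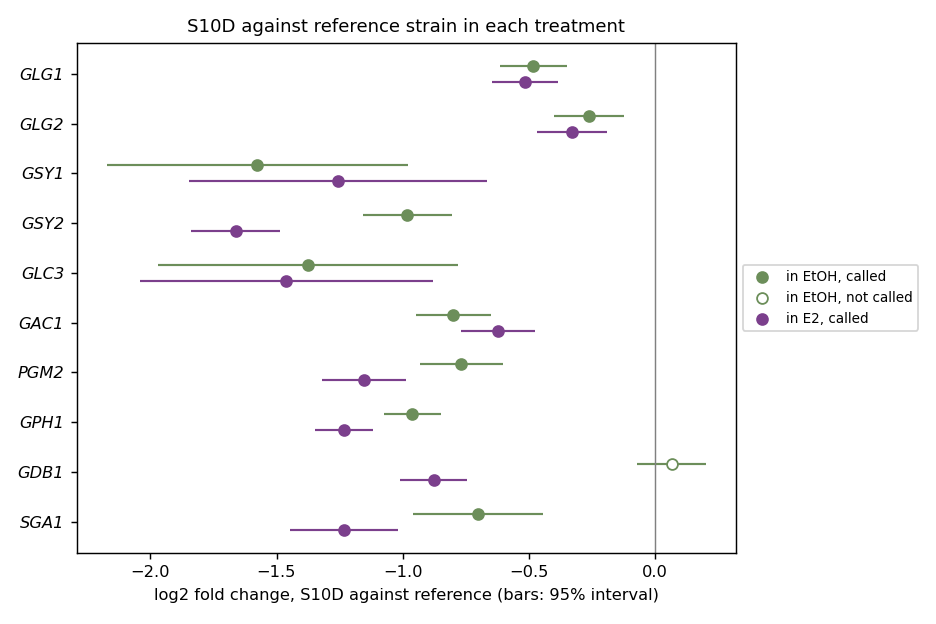
Log2 fold change of each glycogen gene between the strains, S10D-labelled over reference, in EtOH and in E2, with 95% intervals from the fit and filled points for called genes. The points lie below 0 for all 10 genes in E2 and for all but GDB1 in EtOH, where GDB1 is at 0.07.

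Within the reference strain, 2 genes of breakdown differed most between E2 and EtOH. The debranching enzyme gene GDB1 and the glucoamylase gene SGA1 rose 2.57-fold and 2.48-fold, while phosphorylase GPH1, synthase GSY2 and phosphoglucomutase PGM2 rose by smaller amounts, and the glycogenin genes were not called. In all, 5 of 10 members were called higher and none lower, where 44.6% of all features tested were called, 22.4% higher and 22.2% lower. Without overlap, 5 members were higher and 1, GLG1, lower, against 24.8% and 23.8% of all features. The members' median was 0.41 against 0.00 over all features.

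GDB1 went from 153.9, 175.4 and 150.6 CPM in EtOH to 379.9, 434.0 and 419.5 in E2 (log2 1.36 ± 0.06, SE, adjusted p = 1.95e-09). SGA1 went from 15.2, 16.9 and 16.2 CPM to 38.6, 41.5 and 39.7 (1.31 ± 0.10, adjusted p = 2.20e-07). Both genes lay above 99% of the features tested in the order of fold changes (percentiles 99.2 and 99.0). GPH1 went from 317.8, 347.8 and 337.9 CPM to 425.9, 473.1 and 438.2 (0.41 ± 0.05, adjusted p = 2.01e-05). The groups did not overlap for any of these genes of breakdown.

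On the side of synthesis, GSY2 rose by 0.63 ± 0.08 on the log2 scale (adjusted p = 2.62e-05) from the EtOH levels given above to 492.9, 544.3 and 547.0 CPM. PGM2 rose by 0.45 ± 0.08 (adjusted p = 0.000284) to 400.5, 424.0 and 428.1 CPM. GAC1 had 118.6, 123.1 and 127.1 CPM in E2 and overlapped EtOH by a single library (0.11 ± 0.07, adjusted p = 0.204). GLG1, at 95.8 to 98.0 CPM in E2, lay below its EtOH libraries without overlap but was not called (-0.06 ± 0.06, adjusted p = 0.407). GLG2 had a log2 fold change of -0.01 ± 0.06, with a 95% interval from -0.14 to 0.13 (adjusted p = 0.951), and the signs of GLG1 and GLG2 turned with scaling by library totals.

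GSY1 and GLC3 depended on reference EtOH replicate 3. In that library GSY1 was 2.15 times and GLC3 2.16 times the mean of the other 2 EtOH libraries, GSY2 was 1.27 times and PGM2 1.26 times, while GPH1 (1.02), SGA1 (1.01), GLG1 (0.98) and GDB1 (0.91) were not raised. Of 5287 features with at least 10 CPM in that group, 25 (0.473%) were at least 2-fold higher in replicate 3 by this measure. With all libraries, GSY1 stood at -0.20 ± 0.25 (adjusted p = 0.549) and GLC3, with 220.5, 237.6 and 266.9 CPM in E2, at 0.40 ± 0.25 (adjusted p = 0.218). Without it, GSY1 was called higher at 0.27 ± 0.06 (adjusted p = 0.000298, range over all alternatives 0.000298 to 0.75) and GLC3 at 0.88 ± 0.06 (adjusted p = 1.06e-10, range over all alternatives 1.06e-10 to 0.513).

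Without that library GAC1 was called as well, at 0.14 ± 0.06 (adjusted p = 0.0489, range over all alternatives 0.0396 to 0.401), so that 8 of 10 members were called higher, beside 26.0% of all features in that fit. GSY2 stood at 0.75 ± 0.04, PGM2 at 0.57 ± 0.04, GPH1 at 0.42 ± 0.05, GDB1 at 1.32 ± 0.05 and SGA1 at 1.32 ± 0.10. The glycogenin genes GLG1 (-0.07 ± 0.06) and GLG2 (0.03 ± 0.07) were not called with or without it.

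**Figure D4:**
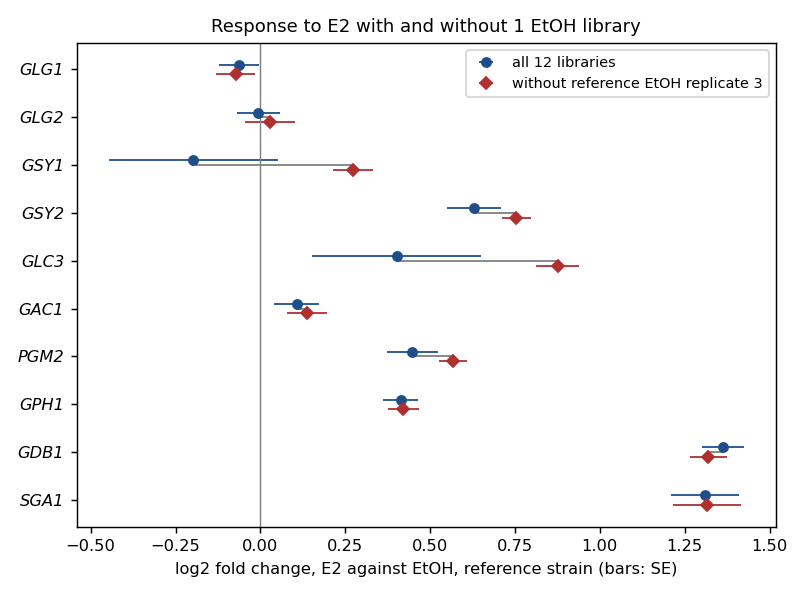
Log2 fold change of each glycogen gene in E2 against EtOH in the reference strain, from all 12 libraries and without reference EtOH replicate 3, with SE bars and grey lines joining both values of a gene. GSY1 moves from -0.20 to 0.27 and GLC3 from 0.40 to 0.88, while GDB1 and SGA1 stay near 1.3.

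In the S10D-labelled strain 3 members were called with E2 in the fit of all 12 libraries. In fits of only the libraries compared, 5 members were called in each strain, beside 1843 of all features in the reference and 1370 in the S10D-labelled strain. GDB1 and SGA1 were again the members with the largest changes, and GAC1 was the third gene called, while the synthases were not called. With all libraries the 3 members were higher and none was lower, where 4.56% of all features tested were called, 2.42% higher and 2.14% lower. The members' median was 0.13, against 0.00 over all features.

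GDB1 went from 161.6, 168.4 and 172.1 CPM to 220.6, 224.5 and 226.2 (log2 0.42 ± 0.06, adjusted p = 0.00151). SGA1 went from 9.22, 12.3 and 8.33 CPM to 16.4, 17.8 and 16.7 (0.78 ± 0.12, adjusted p = 0.00183). The groups did not overlap for either gene, nor for GAC1, GPH1 and GLC3, a total of 5 of 10 members higher without overlap and none lower, against 17.5% and 18.3% of all features. GAC1 had 61.8, 69.3 and 65.7 CPM in EtOH and 70.9, 82.0 and 86.6 in E2 (0.29 ± 0.07, adjusted p = 0.0372). Its call ended when any 1 of 8 libraries was left out, namely the 3 of reference E2, the 3 of S10D-labelled EtOH and S10D-labelled E2 replicates 2 and 3, with values of 0.22 to 0.33 and adjusted p from 0.053 to 0.182 (range over all alternatives 0.0012 to 0.182).

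GPH1 had 180.4, 168.1 and 166.6 CPM in EtOH and 187.8, 194.4 and 186.6 in E2 (0.14 ± 0.05, adjusted p = 0.165). GLC3 had 71.8, 64.7 and 74.8 CPM and then 88.0, 86.0 and 89.4 (0.32 ± 0.27, adjusted p = 0.629). Without reference EtOH replicate 3, which belongs to neither group but enters the shared estimate of the spread, both were called, GPH1 at 0.14 ± 0.05 (adjusted p = 0.034, range over all alternatives 0.00455 to 0.42) and GLC3 at 0.32 ± 0.07 (adjusted p = 0.00258, range over all alternatives 2.83e-05 to 0.806). That fit called 8.42% of all features higher. GSY2 stood at -0.05 ± 0.08 with a 95% interval from -0.23 to 0.13, PGM2 at 0.06 ± 0.08 (-0.11 to 0.23) and GSY1 at 0.12 ± 0.28 (-0.51 to 0.75), and the libraries of these genes overlapped. GLG1 (-0.10 ± 0.06) and GLG2 (-0.07 ± 0.07) were not called either.

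**Figure D5:**
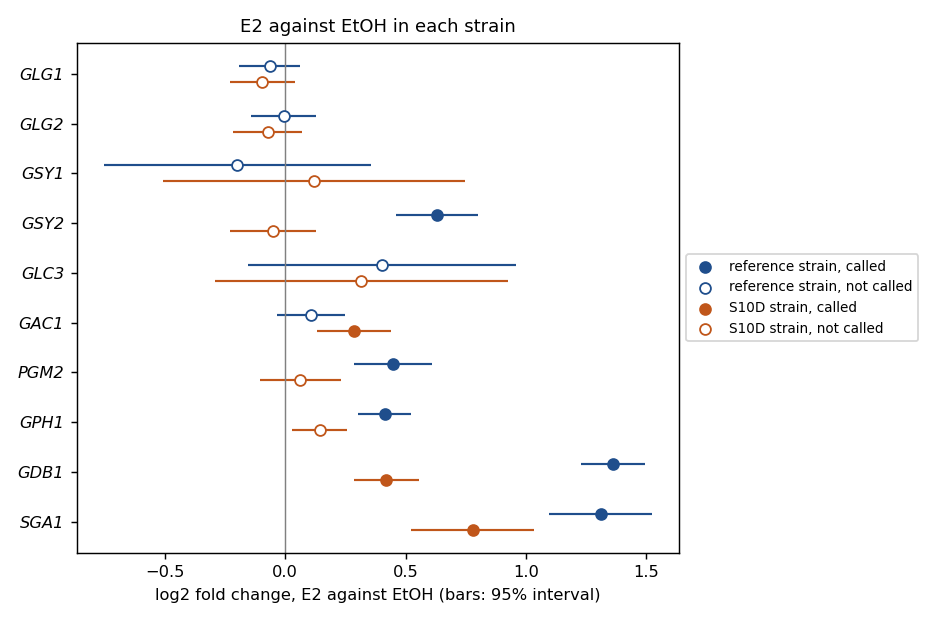
Log2 fold change of each glycogen gene in E2 against EtOH in the reference and the S10D-labelled strain, with 95% intervals from the fit and filled points for called genes. GDB1 and SGA1 are the highest in both strains, and GSY2 is at 0.63 in the reference and at -0.05 in the S10D-labelled strain.

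The responses were set against each other by the difference of the fold changes, S10D-labelled minus reference, tested in the same fit. The fold changes of GDB1, GSY2, SGA1, PGM2 and GPH1 were lower in the S10D-labelled strain, 5 of 10 members with none higher, where 20.4% of all features tested were called, 10.6% lower and 9.82% higher. GDB1 had the largest difference (-0.94 ± 0.09, adjusted p = 6.34e-06), followed by GSY2 (-0.68 ± 0.11, adjusted p = 0.000894). Both of these were called whichever library was left out.

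The other 3 calls were less firm. SGA1 stood at -0.53 ± 0.16 (adjusted p = 0.0285) and lost its call without any 1 of 6 libraries, which were reference EtOH replicate 1, reference E2 replicates 2 and 3, S10D-labelled EtOH replicate 2 and S10D-labelled E2 replicates 1 and 3 (-0.54 to -0.36, adjusted p 0.0513 to 0.0826, range over all alternatives 0.00974 to 0.0826). PGM2 stood at -0.39 ± 0.11 (adjusted p = 0.0228) and lost it without reference E2 replicate 2 or 3, S10D-labelled EtOH replicate 1 or 3, or S10D-labelled E2 replicate 2 or 3 (-0.38 to -0.36, adjusted p 0.0525 to 0.0623, range over all alternatives 7.59e-08 to 0.0623). GPH1 stood at -0.27 ± 0.07 (adjusted p = 0.0195) and lost it without reference E2 replicate 2, S10D-labelled EtOH replicate 1 or S10D-labelled E2 replicate 3 (-0.26 to -0.23, adjusted p 0.0516 to 0.0635, range over all alternatives 0.00142 to 0.0635).

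For GLC3 the difference was -0.08 ± 0.37 (adjusted p = 0.903) and was called at -0.56 ± 0.09 without reference EtOH replicate 3 (adjusted p = 6.34e-05, range over all alternatives 6.34e-05 to 0.989). GSY1 stood at 0.32 ± 0.38, or at -0.15 ± 0.09 without it, not called in either fit (adjusted p = 0.599 and 0.199). The difference of GAC1 was 0.18 ± 0.10, so that its call in the S10D-labelled strain alone does not show a difference between the strains (adjusted p = 0.22). GLG1 (-0.03 ± 0.09) and GLG2 (-0.07 ± 0.09) were not called.

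Other genes of the pathway were read from lists chosen by role, and each count is given beside the share of all features called. In the fit without reference EtOH replicate 3, whose counts are in brackets, the shares were 26.0% higher and 26.0% lower with E2 in the reference strain and 8.42% and 8.04% in the S10D-labelled strain. Between the strains they were 30.7% higher and 34.7% lower in EtOH, and 32.8% and 33.4% in E2. For the difference of the responses they were 16.5% higher and 16.7% lower.

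Type 1 phosphatase and its glycogen subunits, 5 genes beside GAC1, had 3 members higher and none lower with E2 in the reference strain (4 and none without reference EtOH replicate 3), beside 22.4% and 22.2% of all features, with a median of 0.48. GIP2, PIG2 and PIG1, which like Gac1 are phosphatase subunits linked to glycogen, stood at 1.08 ± 0.07, 0.63 ± 0.12 and 0.48 ± 0.07 (adjusted p = 5.27e-08, 0.00116 and 0.000113). The catalytic subunit gene GLC7 stood at 0.03 and was not called. In the S10D-labelled strain edgeR and DESeq2 called none of the 5, and 1 had an unadjusted p under 0.05. The difference of the responses was called lower for 3 of the 5 and higher for none, beside 10.6% and 9.82% of all features, GIP2 at -0.89 ± 0.10 (adjusted p = 3.65e-05) and PIG1 at -0.50 ± 0.10 (adjusted p = 0.00396) among them.

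Between the strains, the phosphatase list had 2 members higher and 1 lower in the S10D-labelled strain in EtOH (2 and none without reference EtOH replicate 3) and 1 higher and 3 lower in E2 (2 and 3 without it). The shares of all features were 26.7% and 31.4% in EtOH and 27.0% and 27.3% in E2, so that with 5 genes the counts in EtOH and the count higher in E2 lay near them. In E2, PIG2 (-1.02 ± 0.13, adjusted p = 1.96e-05), GIP2 (-0.83 ± 0.07, adjusted p = 1.93e-07) and PIG1 (-0.35 ± 0.07, adjusted p = 0.000963) were the 3, beside GAC1 at -0.62. GLC7 was higher by 0.18 in EtOH (adjusted p = 0.00422) and by 0.16 in E2 (adjusted p = 0.00738).

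Genes that supply glucose phosphate and UDP-glucose divided. With E2 in the reference strain 2 of 7 were higher and 4 lower (3 and 4 without reference EtOH replicate 3), with a median of -0.23. Of all features 22.4% were higher and 22.2% lower, so that 2 of 7 lay near the share. The glucokinase gene GLK1 rose by 0.98 ± 0.06 (adjusted p = 3.18e-08) and PRM15, also named PGM3, a phosphoglucomutase gene, by 0.32 ± 0.05 (adjusted p = 0.000215). The hexokinase gene HXK2 fell, with a log2 fold change of -0.64 ± 0.04 (adjusted p = 2.22e-08), and so did EMI2, a glucokinase-like gene, at -0.48 ± 0.11 (adjusted p = 0.00477), or -0.29 without that library. UGP1, whose product makes the UDP-glucose that glycogen synthase uses, stood at 0.10 ± 0.06 (adjusted p = 0.154), or at 0.16 and called without that library (adjusted p = 0.00288).

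In the S10D-labelled strain 1 of the 7 was called with E2, HXK2, lower at -0.21 ± 0.04 (adjusted p = 0.00502), beside 2.14% of all features called lower. Without reference EtOH replicate 3, 1 was called lower and 1, GLK1, higher at 0.18 ± 0.03 (adjusted p = 0.000359). The responses differed for 3 of the 7, GLK1 (-0.79 ± 0.08, adjusted p = 1.88e-05), HXK2 (0.43 ± 0.05, adjusted p = 6.63e-05) and PRM15 (-0.30 ± 0.08, adjusted p = 0.0125), 2 lower and 1 higher, beside 10.6% and 9.82% of all features. Without reference EtOH replicate 3, 3 were lower and 2 higher. Between the strains, 1 of the 7 was higher and 3 were lower in EtOH and 2 were higher and 3 lower in E2, beside 26.7% and 31.4%, and 27.0% and 27.3%, of all features. Without reference EtOH replicate 3 these counts were 1 and 4 in EtOH and 4 and 3 in E2. UGP1 was lower in the S10D-labelled strain in EtOH (-0.87 ± 0.06, adjusted p = 1.37e-08) and in E2 (-1.02 ± 0.06, adjusted p = 2.77e-09). HXK1, a hexokinase gene, was lower in both as well (-1.13 ± 0.06 and -0.92 ± 0.06, adjusted p = 1.62e-09 and 1.85e-08), while GLK1 was higher in EtOH (0.88 ± 0.06, adjusted p = 1.76e-08). PGM1, the minor phosphoglucomutase isoform and 72.5% identical to PGM2 in coding bases, stood at 0.04 between the strains in EtOH, where PGM2 stood at -0.77. In E2, without reference EtOH replicate 3, PGM1 was higher in the S10D-labelled strain (0.28 ± 0.05, adjusted p = 5.06e-06), where PGM2 stood at -1.15. PRM15 was lower in that strain in EtOH and in E2 with all libraries (-0.58 ± 0.05 and -0.88 ± 0.05, adjusted p = 5.16e-07 and 5.81e-09).

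Kinases and their subunits that act on glycogen synthase or its control, 12 genes, had 2 members higher and 3 lower with E2 in the reference strain (2 and 4 without reference EtOH replicate 3), with a median of -0.01. These counts lay near the shares of all features, 22.4% and 22.2%. The PAS kinase genes PSK1 (0.65 ± 0.07, adjusted p = 4.54e-06) and PSK2 (0.56 ± 0.06, adjusted p = 2.73e-06) were those that rose, and the Pho85 cyclin genes PCL6 (-0.32 ± 0.06) and PCL10 (-0.31 ± 0.06) were among those that fell (adjusted p = 0.000721 and 0.000968). In the S10D-labelled strain edgeR and DESeq2 called none of the 12 (edgeR 2 higher and 1 lower without that library), and 3 had an unadjusted p under 0.05. By the test of the difference, 2 of the 12 responses were lower and none higher, beside 10.6% and 9.82% of all features. Without reference EtOH replicate 3, 2 were lower and 2 higher. The 2 with all libraries were PSK1 (-0.47 ± 0.10, adjusted p = 0.00391) and PSK2 (-0.36 ± 0.08, adjusted p = 0.00493). Between the strains, 1 of the 12 was higher and 5 were lower in EtOH, beside 26.7% and 31.4% of all features, and 3 were higher and 5 lower in E2, beside 27.0% and 27.3%. Without reference EtOH replicate 3 these counts were 3 and 4 in EtOH and 3 and 5 in E2. SIP1, a subunit gene of the Snf1 kinase, was lower in the S10D-labelled strain in EtOH (-0.54 ± 0.08, adjusted p = 4.85e-05) and in E2 (-0.44 ± 0.08, adjusted p = 0.000279), as was the cyclin gene PCL8 (-0.48 ± 0.07 and -0.50 ± 0.07, adjusted p = 3.73e-05 and 2.23e-05). PSK1 was lower in E2 (-0.70 ± 0.07, adjusted p = 1.16e-06) and in EtOH (-0.23 ± 0.07, adjusted p = 0.0123). PSK2 was higher in EtOH (0.29 ± 0.06, adjusted p = 0.000559), and PCL6 was higher in E2 (0.27 ± 0.06, adjusted p = 0.00174).

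Of 10 genes of Ras and protein kinase A, 8 were higher and none lower with E2 in the reference strain (8 and 1 without reference EtOH replicate 3), beside 22.4% and 22.2% of all features, with a median of 0.36. The cAMP phosphodiesterase gene PDE2 stood at 0.83 ± 0.10 (adjusted p = 2.59e-05), the Ras inhibitor genes IRA2 and IRA1 at 0.54 ± 0.09 and 0.53 ± 0.08 (adjusted p = 0.00048 and 0.000114) and the adenylate cyclase gene CYR1 at 0.49 ± 0.07 (adjusted p = 7.39e-05). In the S10D-labelled strain 2 of the 10 were called higher (3 without reference EtOH replicate 3), beside 2.42% of all features. The 2 were IRA2 and IRA1, whose calls ended when any 1 of 9 libraries was left out, all but reference EtOH replicates 1 and 3 and S10D-labelled E2 replicate 1. By the test of the difference, 3 of the 10 responses were lower and none higher (7 and none without reference EtOH replicate 3). The shares of all features were 10.6% and 9.82%. The 3 were PDE2 (-0.75 ± 0.14, adjusted p = 0.00243), BCY1 (-0.32 ± 0.06, adjusted p = 0.00267) and CYR1 (-0.30 ± 0.10, adjusted p = 0.0437). The call of CYR1 ended without any 1 of 9 libraries. Between the strains, 4 of the 10 were higher and 2 lower in EtOH, beside 26.7% and 31.4% of all features, and none was higher and 4 lower in E2, beside 27.0% and 27.3%. Without reference EtOH replicate 3 these counts were 3 and 2 in EtOH and 1 and 5 in E2. PDE2 was higher in the S10D-labelled strain in EtOH (0.83 ± 0.10, adjusted p = 1.45e-05).

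The stress transcription factors and their kinases had 5 of 6 members higher with E2 in the reference strain and 2 of 6 in the S10D-labelled strain (4 in each without reference EtOH replicate 3), and none lower. Of all features 22.4% were called higher in the reference and 2.42% in the S10D-labelled strain. XBP1, a repressor gene, stood at 1.03 ± 0.06 in the reference strain (adjusted p = 2.47e-08), and its responses differed by -0.74 ± 0.09 (adjusted p = 6.01e-05). XBP1 (0.28 ± 0.07, adjusted p = 0.028) and MSN4 (0.21 ± 0.05, adjusted p = 0.0436) were the 2 called in the S10D-labelled strain. The call of XBP1 there ended without any 1 of 5 libraries, the 3 of S10D-labelled EtOH and S10D-labelled E2 replicates 2 and 3. That of MSN4 ended without any 1 of 8, the 6 S10D-labelled libraries and reference E2 replicates 2 and 3. RIM15, the gene of a kinase of entry into stationary phase, stood at 0.60 ± 0.10 in the reference strain (adjusted p = 0.000264). By the test of the difference, 2 of the 6 responses were lower and none higher, beside 10.6% and 9.82% of all features. Without reference EtOH replicate 3, 4 were lower. The 2 with all libraries were XBP1 and RIM15 (-0.43 ± 0.14, adjusted p = 0.0446), and the call of RIM15 ended without any 1 of 9 libraries. Of these 6, 2 were higher and 2 lower in the S10D-labelled strain in EtOH, beside 26.7% and 31.4% of all features. In E2, 2 were higher and 3 lower, beside 27.0% and 27.3%. Without reference EtOH replicate 3, 4 were lower in E2. MSN4 was lower in the S10D-labelled strain in EtOH (-0.63 ± 0.05, adjusted p = 1.90e-07) and in E2 (-0.60 ± 0.05, adjusted p = 2.94e-07), while MSN2 was higher in EtOH (0.42 ± 0.07, adjusted p = 8.05e-05). XBP1 was lower in both (-0.37 ± 0.07 and -1.12 ± 0.06, adjusted p = 0.000257 and 2.13e-09), and GIS1 higher in both (0.27 ± 0.06 and 0.33 ± 0.06, adjusted p = 0.00146 and 0.000289). RIM15 was lower in E2 (-0.39 ± 0.10, adjusted p = 0.00455).

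Most of the stress genes read here moved as the glycogen genes did with E2 in the reference strain and between the strains. The summed level of CTT1, DDR2, HSP12, HSP26, HSP42 and ALD3 was 2782.5 to 2838.8 CPM in reference EtOH, 6555.9 to 6690.3 in reference E2, 1734.7 to 1786.3 in S10D-labelled EtOH and 1843.0 to 1928.8 in S10D-labelled E2. With E2 in the reference strain 5 of these 6 were called higher (6 without reference EtOH replicate 3), with a median of 1.26, and in the S10D-labelled strain 1 was called higher and 1 lower (3 and 2 without that library). The shares of all features were 22.4% higher in the reference strain, and 2.42% higher and 2.14% lower in the S10D-labelled strain. By the test of the difference, 5 of the 6 responses were lower and none higher, beside 10.6% and 9.82% of all features. Without reference EtOH replicate 3, 6 were lower. The catalase gene CTT1 rose by 1.64 ± 0.05 in the reference strain (adjusted p = 7.57e-11), and its responses differed by -1.46 ± 0.08 (adjusted p = 4.90e-08). The chaperone gene HSP12 was called higher in both strains, at 1.2 ± 0.04 and 0.36 ± 0.04 (adjusted p = 8.29e-11 and 0.000156). HSP26 was the gene called lower in the S10D-labelled strain (-0.19 ± 0.05, adjusted p = 0.0417), and its call ended without any 1 of 9 libraries.

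Between the strains, 4 of the 6 stress genes were called lower in the S10D-labelled strain in EtOH and 5 in E2, and none higher, beside 31.4% and 27.3% of all features called lower, with ALD3 (-1.64 ± 0.08 and -2.76 ± 0.08, adjusted p = 7.14e-10 and 1.24e-12) and HSP26 (-1.12 ± 0.05 and -2.53 ± 0.05, adjusted p = 9.95e-11 and 2.11e-14) the most so. HSP42 stood at 0.48 ± 0.20 in EtOH and 0.28 ± 0.20 in E2 (adjusted p = 0.058 and 0.256). Without reference EtOH replicate 3 it was called higher in that strain in both, at 0.86 ± 0.05 and 0.28 ± 0.04 (adjusted p = 1.10e-14 and 2.19e-06).

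Markers of mating type moved as well. All 5 markers of a cells, BAR1 among them, were called lower in the S10D-labelled strain in both treatments, as the glycogen genes mostly were, beside 31.4% and 27.3% of all features. With E2 in the reference strain 4 of these 5 were called lower and none higher (5 and none without reference EtOH replicate 3), beside 22.2% of all features lower, while the glycogen genes called there were higher. MFA1, an a factor gene, stood at -0.79 ± 0.11 (adjusted p = 6.63e-05). The responses of 3 of the 5 were called higher in the S10D-labelled strain (5 without reference EtOH replicate 3), beside 9.82% of all features, that of MFA1 by 0.78 ± 0.16 (adjusted p = 0.00386). Of the 3 alpha cell markers tested, 1 was called lower in the S10D-labelled strain in EtOH and all 3 in E2, beside the same shares of 31.4% and 27.3%. The 1 in EtOH was SAG1 (-0.18 ± 0.07, adjusted p = 0.0432). Its call ended without any 1 of 8 libraries, and DESeq2 called none of these markers in EtOH. The part of the stress genes or of the a cell markers in the levels of the glycogen genes was not tested.

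Because SGA1 is known from sporulating cells, 10 genes of meiosis and sporulation were read beside it. They summed to 83.5 to 89.8 CPM in reference EtOH, 92.4 to 97.6 in reference E2, 76.7 to 86.9 in S10D-labelled EtOH and 85.7 to 91.0 in S10D-labelled E2, and none was at 0 in any library. With E2, 3 of 10 were called higher and 1 lower in the reference strain (3 and 2 without reference EtOH replicate 3), and 1 higher and none lower in the S10D-labelled strain. The shares of all features were 22.4% and 22.2% in the reference and 2.42% and 2.14% in the S10D-labelled strain, so that the counts of the reference strain lay near them or below. In the reference strain SPS1 stood at 1.16 ± 0.18 (adjusted p = 0.000155), DIT1, a gene of the spore wall, at 1.1 ± 0.11 (adjusted p = 2.95e-06) and IME2 at 0.53 ± 0.11 (adjusted p = 0.00144). SPS4 stood at -0.61 ± 0.09 there (adjusted p = 9.11e-05). IME2 was also the gene called in the S10D-labelled strain (0.48 ± 0.11, adjusted p = 0.027), a call that ended without any 1 of 4 libraries. By the test of the difference, 1 of the 10 responses was higher and 2 were lower, with and without reference EtOH replicate 3. The shares of all features with all libraries were 9.82% and 10.6%. NDT80, which encodes the main transcription factor of the middle of sporulation, had 51 to 81 counts in each library and was not called with E2 in either strain. NDT80 was higher in the S10D-labelled strain in EtOH (0.45 ± 0.14, adjusted p = 0.0123), a call that ended without reference EtOH replicate 2. SPS4 was lower in that comparison (-1.01 ± 0.10, adjusted p = 6.39e-07). In all, 3 of the 10 were higher and 2 lower in that strain in EtOH (3 and 1 without reference EtOH replicate 3), beside 26.7% and 31.4% of all features. In E2 the counts were 1 and 4 in both fits, beside 27.0% and 27.3%.

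The genes most like the list in pattern were sought by the Pearson correlation, over the 12 libraries, with the mean of the members' standardized log2 CPM. They were PBI2, a proteinase inhibitor gene (r = 0.988), NNR1 (0.985), YMR206W (0.984), BEM1 of cell polarity (0.983) and ESF1 of ribosome assembly (0.983). The libraries fall into 2 strains, which these values share, and 5.40% of all tested features had r above 0.9, so that the values are a description of these libraries.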

How the data were processed

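Counts, whole numbers of reads per annotated feature, were used as the authors deposited them, with a column per library named by its title. Per the labels' protocols, each stranded poly(A) library took 400 ng of RNA and 12 cycles of PCR. The submitters' processing notes name STAR 2.5.3a, HTSeq 0.6.1p1, bcl2fastq 2.20.0.422 and cutadapt 1.10, and the builds R64 and sacCer3. Counting mode and strand setting are not given in the sources used here, and no member overlaps another annotated gene.

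Features kept by filterByExpr (minimum count 10, minimum total 15; 5990 of 7127) were scaled by TMM. The test was edgeR 4.0.16's robust quasi-likelihood test in R 4.3.3, which is 2-sided, in 1 model of 4 group means, with 8 residual degrees of freedom and a common biological coefficient of variation of 6.31%. Alternatives included DESeq2 1.42.0. The SE is the log2 fold change over the root of F. Comparisons in the same treatment or strain share libraries. Replicate numbers were not used to pair libraries. The fit was tested on simulated data.

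Members and lists were chosen with earlier results of these data known, so no p is given for a list. All members are named in each comparison, and of the other lists up to 4 called genes a comparison with the largest change, mostly those whose calls held with any library left out. GLC7, UGP1, PGM1 and NDT80 were also named where not called, for their roles, and HSP42, MFA1, PRM15, PSK1, PSK2 and PCL6 in further comparisons, after their values were seen. BAR1 was read for the label check after its value was seen. Sequences and coding lengths are from the RefSeq copy of R64, and symbols were matched by locus tag.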

Additional observations from a re-analysis of the deposited data

Results flagged for a closer look

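The response to E2 differed between the strains for 5 glycogen genes by the test of the difference itself, S10D-labelled minus reference, with edgeR and Benjamini-Hochberg adjustment over all features. The log2 differences were -0.94 ± 0.09 for GDB1 (SE, n = 3 per group, adjusted p = 6.34e-06), -0.68 ± 0.11 for GSY2 (adjusted p = 0.000894), -0.53 ± 0.16 for SGA1 (adjusted p = 0.0285), -0.39 ± 0.11 for PGM2 (adjusted p = 0.0228) and -0.27 ± 0.07 for GPH1 (adjusted p = 0.0195). The response in the reference strain was the larger in each case. Of all features tested 20.4% were called for this difference, 10.6% lower and 9.82% higher. The calls of SGA1 and PGM2 each ended without any 1 of 6 libraries, and that of GPH1 without any 1 of 3. The strains also differ in alleles other than the histone construct, whose part cannot be told apart.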

How the results depend on the processing

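Of the values of single members recomputed under the alternatives, 998 kept their direction and their side of the threshold, 23 lost a call, 8 gained one and 11 changed sign. Members called with E2 in the reference strain numbered 5, and 5 to 8 when a library was left out. In the S10D-labelled strain they numbered 3, with 2 to 5 when a library was left out and 5 in a fit of the libraries compared alone. For the difference of responses they numbered 5, and 2 to 6 when a library was left out. Between strains all such counts stayed at 9 in EtOH and 10 in E2. With a log2 fold change of 1 or more in size as a further condition, the 5 comparisons kept 2, 0, 0, 2 and 6 members in the order of reference response, S10D-labelled response, difference, EtOH and E2. Of the 5990 features tested, that condition kept 129, 4, 79, 546 and 443 in the same order. Over all features, the S10D-labelled response called 273, and 1370 in a fit of the libraries compared alone, 991 without reference EtOH replicate 3 and 102 to 138 without an S10D-labelled library. The difference called 1224, and 1994 without reference EtOH replicate 3. The cause was not tested.

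Signs turned mostly for values near 0. For E2 in the reference strain, scaling by library totals put GLG1 at 0.0053 and GLG2 at 0.064, while GLG2 stood at 0.016 with TMM without chromosome IV and at 0.010 with features averaging 10 CPM or more, and GAC1 was called with library totals. When a library was left out, GLG2 ran from -0.033 to 0.032 and GSY1 from -0.41 to 0.27. The difference of responses then ran from -0.11 to 0.013 for GLG1, from -0.15 to 0.53 for GSY1 and from -0.56 to 0.11 for GLC3. Fitting the replicate number as a block left the counts of called members at 5, 3, 5, 9 and 10. The numbers were not taken as pairing libraries, since correlations of same-numbered deviations ran from -0.07 to 0.13 and in no pair of groups were all above 0.1.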
